A study of Mus musculus with 9 samples.

Results

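Aminoacyl-tRNA synthetases and the scaffold proteins that hold several of them together were followed in mouse embryonic fibroblasts sorted for low or high MYC. The members are the protein-coding genes whose symbols follow the naming of the family (Aars, Aars2 and so on), with Eprs, Farsa, Farsb, Aimp1, Aimp2 and Eef1e1, which gave 40 of the 19769 genes in the table. They are 20 cytosolic synthetases, 17 mitochondrial synthetases, whose symbols end in 2, and 3 scaffold proteins. Membership was set by name and used no measured value.

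Primary MEFs came from mid-gestation embryos of mice homozygous for a MYC-GFP fusion at the endogenous gene (Myc-Egfp+/+), and had been passaged at most a few times. Cells of both groups had received the proteasome inhibitor MG-132 at 20 µM for 6 h before they were sorted by GFP, so no group without the inhibitor was compared, and were then seeded overnight. RNA-seq gave 2 libraries of low-MYC and 2 of high-MYC cells. These are technical replicates, so every p-value measures the spread between libraries and not between cultures or embryos. ERCC RNA, a synthetic spike-in, had been added in proportion to cell number, and the values are fragments per kilobase (FPK) divided by the spike-in score of the library, which makes them levels per cell and per length. Read counts were not used here and the depth is unknown.

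Each synthetase charges tRNA with a single amino acid, and translation draws on these charged tRNAs. Most amino acids have a cytosolic and a mitochondrial enzyme from separate nuclear genes. Gars and Kars encode both forms from a single gene, Eprs joins the glutamate and proline enzymes, and Farsa and Farsb are the subunits of the cytosolic phenylalanine enzyme. Several cytosolic enzymes sit with Aimp1, Aimp2 and Eef1e1 in the multisynthetase complex. Genes for many cytosolic enzymes are known targets of ATF4, the transcription factor of the amino acid response, and of MYC.

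All 40 members had higher levels per cell in both high-MYC libraries than in either low-MYC library. Among tested genes, which average 0.1 or more in normalized FPK across the 4 libraries, 99% showed this separation, so the members did what nearly every gene did. The sum of normalized FPK over all genes was between 46321 and 48291 in low-MYC and between 102853 and 109090 in high-MYC libraries. The 40 members made up 0.151% and 0.148% of that sum in the low-MYC libraries and 0.143% and 0.142% in the high-MYC libraries. In limma with Benjamini-Hochberg adjustment on log2(normalized FPK + 0.1), 37 members could be tested and 37 rose at an adjusted p under 0.01, beside 97.1% of the 11870 genes tested. At 2-fold or more there were 20 of 37 members beside 55.1% of all genes. By form these were 13 of 20 cytosolic, 6 of 14 mitochondrial and 1 of 3 scaffold genes. These counts depend on the 0.1 added before the log, which takes more from genes of low level. With 0.01 added, 33 of 37 members were higher at 2-fold or more, beside 10076 of 11870 genes.

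**Figure D1:**
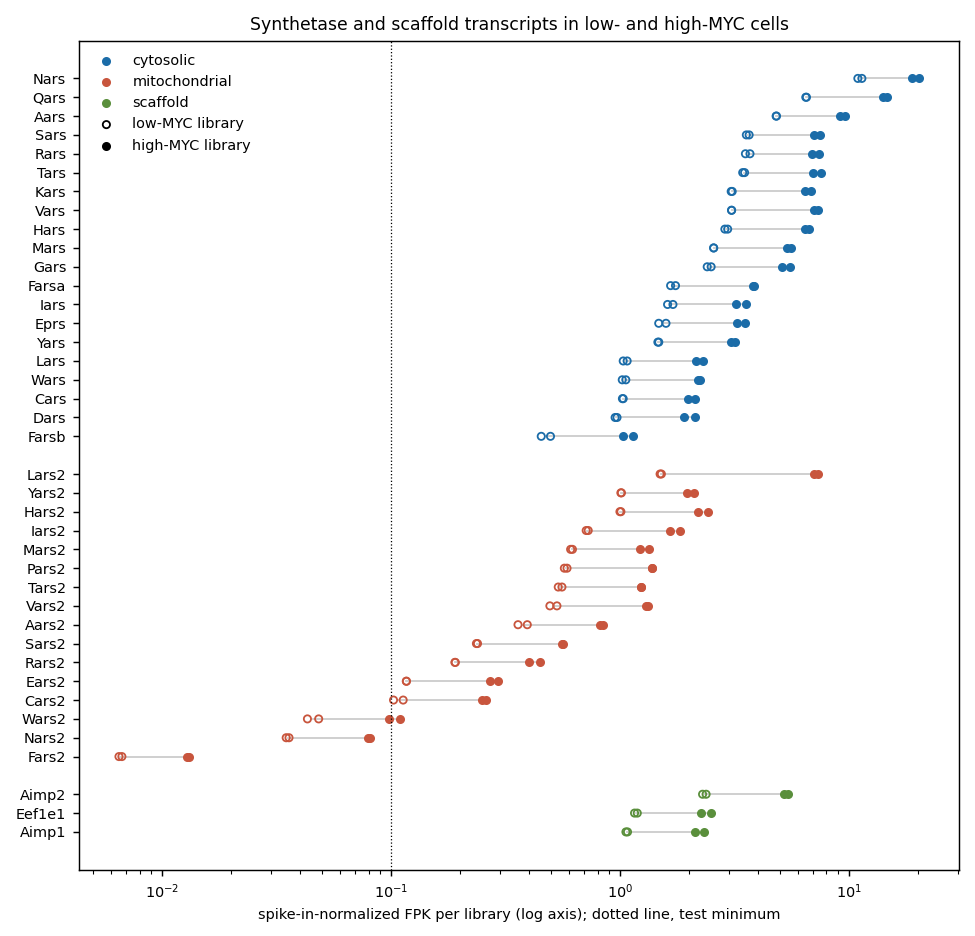
Level of 39 members in each library, as spike-in-normalized FPK on a log axis. Open circles are low-MYC and filled circles high-MYC libraries, lines join the group means, and the dotted line is the minimum mean of 0.1 for testing. The groups are apart for all 39, and Lars2 has the longest line.

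Myc mRNA itself, from the gene that carries the fusion, was at 9.81 and 9.86 in the low-MYC libraries and at 20.3 and 20.5 in the high-MYC libraries. Its groups were apart per cell. Relative to the median gene both high-MYC libraries lay under both low-MYC libraries, with a log2 difference of -0.13 that did not pass the test (limma adjusted p = 0.105). Of 12 fibroblast markers, 12 could be tested, and their summed level was 341 and 346 in low-MYC and 816 and 833 in high-MYC libraries. Relative to the median gene 10 of the 12 were above 0, with a median log2 difference of 0.26, and 3 were higher at an adjusted p under 0.01 in limma, among them Lum (1.33) and Dcn (0.90). Of 10 markers of other cell types 1 could be tested, Tubb3, a neuronal tubulin, at 0.32 (limma adjusted p = 0.0320). Macrophage markers moved with the groups. Of 12 listed, 8 could be tested and 8 were higher relative to the median gene, and their summed level was 0.627 and 0.868 in low-MYC and 27.3 and 28.8 in high-MYC libraries. Fewer cells of a type and less RNA per cell cannot be told apart in such bulk samples, and the part of these markers in the results on synthetases was not tested.

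Since most genes rose, each library was also divided by its median gene. On this relative scale the median of all tested genes lay near 0, whereas it was 1.03 on the spike-in log2 scale. A value below 0 therefore means a gene that rose less than the median gene, not a gene that fell per cell. On the relative scale 1 of 37 members was higher at an adjusted p under 0.01, Lars2, beside 1.76% of all genes, and 1 of 37 was lower, Nars, beside 0.531%. At an adjusted p under 0.05 there were 6 lower members, Nars, Aars, Rars, Sars, Cars and Yars2, beside 5.08% of all genes, and 1 higher member, Lars2, beside 7.84%. The groups did not overlap and the member was lower in 19 of 37 cases (51.4%), where 32.6% of all genes were so. It was higher without overlap in 4 of 37 cases (10.8%), where 30.7% of all genes were so.

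**Figure D2:**
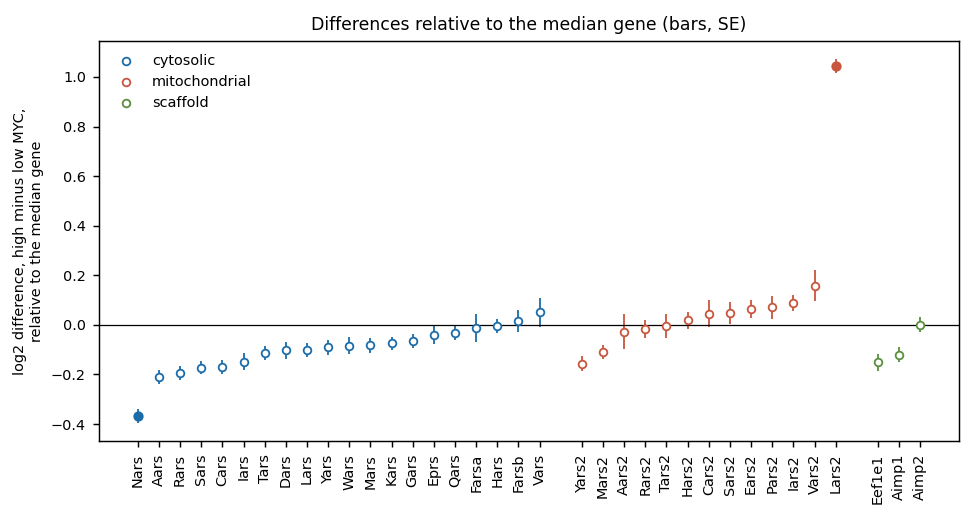
Log2 difference between high- and low-MYC libraries relative to the median gene for 36 tested members, with the standard error of the limma fit. Filled symbols mark an adjusted p under 0.01, which Nars (-0.37) and Lars2 (1.04) passed.

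The cytosolic synthetases lay slightly below the median gene as a group. Of 20, 18 had a relative log2 difference below 0 and 2 above, Farsb and Vars. Over all tested genes 51.5% were below 0. Their median was -0.087, beside -0.0040 for all genes. In 15 of 20 the groups were apart and lower, and in 0 of 20 apart and higher, where 32.6% and 30.7% of all tested genes were so.

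Nars, the asparaginyl-tRNA synthetase, was the most abundant member per length. Its normalized FPK was 10.97 and 11.4 in low-MYC and 18.9 and 20.4 in high-MYC libraries. It was higher per cell in both high-MYC libraries, with the lowest ratio of means of the 40 members, 1.75 (spike-in log2 difference 0.80, SE 0.0544). Relative to the median gene its log2 difference was -0.37 (SE 0.0276, limma adjusted p = 0.00812). Its rank among protein-coding genes went from 432 in low-MYC to 547 in high-MYC cells. The call was lost without any 1 of the 4 libraries, with adjusted p between 0.0444 and 0.0728, while the difference stayed between -0.38 and -0.36. In limma it was also lost without the trend (adjusted p = 0.0110) and without a minimum mean (adjusted p = 0.0288).

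The genes next to Nars at this end were Aars and Rars, for alanine and arginine. Aars was at 4.82 and 4.84 in low-MYC and at 9.20 and 9.65 in high-MYC libraries. Rars was at 3.54 and 3.71, and at 6.90 and 7.42. Both were apart between groups on either scale and rose less than the median gene, with relative log2 differences of -0.21 (SE 0.0278, limma adjusted p = 0.0245) and -0.19 (SE 0.0282, adjusted p = 0.0301). Sars, for serine, and Cars, for cysteine, followed at -0.17 each, with adjusted p of 0.0307 and 0.0361. Then came Iars (-0.15), Tars (-0.11), Dars (-0.10), Lars (-0.10), Yars (-0.091), Wars (-0.084), Mars (-0.081), Kars (-0.074) and Gars (-0.064), all apart and lower, none past an adjusted p of 0.05. Qars was apart at -0.033, and the groups of Eprs (-0.039) and Farsa (-0.012) overlapped.

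At the other end of the cytosolic enzymes were Vars, Farsb and Hars. Vars, for valine, was at 3.08 in both low-MYC libraries and at 7.38 and 7.08 in high-MYC libraries. Farsb, the beta subunit of the phenylalanine enzyme and the cytosolic gene with the lowest level, was at 0.454 and 0.498 and at 1.04 and 1.15. Hars, for histidine, was at 2.88 and 2.96 and at 6.47 and 6.72. On the relative scale their groups overlapped, with differences of 0.051 (SE 0.0582), 0.016 (SE 0.0455) and -0.0040 (SE 0.0279). Qars, for glutamine, was second to Nars in level, at 6.50 and 6.54 in low-MYC and 14.1 and 14.7 in high-MYC libraries. The subunits Farsa and Farsb, which act together, differed in level (Farsa 1.75 and 1.67, then 3.85 and 3.82) but both lay close to the median gene.

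Genes of the multisynthetase complex and genes outside it had like medians. The 11 genes of the complex, scaffolds included, had a median relative log2 difference of -0.10, and the 12 cytosolic genes outside it -0.087. Class I enzymes (9 genes) had a median of -0.091 and class II enzymes (10 genes) -0.088. The classes name unrelated folds of the catalytic domain, and Eprs, which holds both, was left out. Gars and Kars, which serve both compartments, were at -0.064 and -0.074. Among the scaffolds, Eef1e1 was at 1.16 and 1.19 in low-MYC and 2.26 and 2.51 in high-MYC libraries. Aimp1 was at 1.06 and 1.08 and at 2.12 and 2.33. Both were apart and lower relative to the median gene (-0.15 and -0.12, limma adjusted p = 0.0632 and 0.0773), and Aimp2 overlapped at 0.0015 with 2.30 and 2.38 against 5.20 and 5.41.

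Sequence was looked at in the RefSeq promoters (GRCm38.p6, 250 bases before to 50 after the start), which matched 30 of the 40 members. The letters TGATGNAAN, or their reverse complement, belong to the C/EBP-ATF composite element through which ATF4 acts. They occurred in 5 of 13 matched cytosolic genes (38.5%), in 0 of 14 mitochondrial and 0 of 3 scaffold genes, and in 3.95% of all 32851 promoters. Members are counted as genes with a match in any of their promoters. The background counts each promoter by itself, so the shares are not of like units. Aars holds a further match, at position -113 from the start, that is not printed. The other matches are printed with the letters in capitals and each 30-base window on the strand of the gene. The capitals are alike because the search chose them, so their likeness is no result.
Yars (chr4:129189896-129189925, plus strand): cgagctcagcTGATGCAACccgacgggact
Gars (chr6:55037960-55037989, plus strand): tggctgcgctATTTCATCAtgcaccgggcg
Aars (chr8:111033840-111033869, plus strand): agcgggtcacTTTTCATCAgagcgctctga
Iars (chr13:49682126-49682155, plus strand): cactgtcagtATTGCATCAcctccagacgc
Tars (chr15:11399655-11399684, minus strand): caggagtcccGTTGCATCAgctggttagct

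The 5 genes with these letters had a median relative log2 difference of -0.11 (-0.21 for Aars to -0.064 for Gars). The 8 other matched cytosolic genes had -0.056 (-0.17 to 0.016), and 5 of 5 and 7 of 8 were below 0. Only 13 of the 20 cytosolic genes had a matched promoter. Those without one are in neither group, among them Nars, Rars and Vars, at -0.37, -0.19 and 0.051. Of these unmatched genes only Vars was above 0. The E-box CACGTG, the preferred site of MYC with MAX, occurred in 4 of 13 matched cytosolic genes (30.8%). It was in 1 of 14 mitochondrial genes (7.14%), 0 of 3 scaffold genes and 7.15% of all promoters, again not like units. Aars, Iars and Tars held both sets of letters, which did not overlap, and are shown here with the E-box in capitals, beside Farsb and the mitochondrial Ears2.
Aars (chr8:111033684-111033713, plus strand): agtcaaccctgtCACGTGacactccatgtc
Iars (chr13:49682049-49682078, plus strand): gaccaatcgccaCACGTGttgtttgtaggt
Tars (chr15:11399622-11399651, minus strand): tccgcctgtggcCACGTGgcgcacgcgcag
Farsb (chr1:78488919-78488948, minus strand): ttagacaggcatCACGTGagacagcccaag
Ears2 (chr7:122067048-122067077, minus strand): cgcgaaggagccCACGTGtgtgtttctagt
A match to letters is a description of the sequence and does not show that a factor is bound there.

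The mitochondrial synthetases spread to both sides of the median gene. Of 14 tested, 5 lay below 0 and 9 above, with a median relative log2 difference of 0.036. Without Lars2 the median of the other 13 was 0.027. The groups were apart and higher in 4 (Lars2, Vars2, Iars2, Ears2), apart and lower in 2 (Yars2, Mars2), and overlapped in 8. The share apart and higher was 28.6%, close to the 30.7% of all genes, and the share apart and lower was 14.3%, under the 32.6% of all genes.

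Lars2, the mitochondrial leucyl-tRNA synthetase, stood apart from every other member. Its normalized FPK was 1.501 and 1.52 in low-MYC and 7.06 and 7.35 in high-MYC libraries. The groups did not overlap, and the ratio of means was 4.77 (log2 difference 2.18 on the spike-in scale, SE 0.0444). The member with the next highest ratio, Vars2, had 2.55. Relative to the median gene the log2 difference of Lars2 was 1.04 (SE 0.0279, limma adjusted p = 0.00164), and its rank among protein-coding genes rose from 2801 to 1460. Leaving out any 1 library kept the difference between 1.03 and 1.06 with adjusted p between 0.0150 and 0.0213, so that the call at 0.01 was lost each time. Another pseudocount, minimum, scaling or gene set kept the call.

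Lars2 lies on the plus strand at chr9:123366927-123462666 (GRCm38), and its longest coding transcript has 21 exons. The last exon, at chr9:123461499-123462664, holds 1166 of its 3894 bases. This exon shares runs of 31 bases, on either strand, with AA474408, over 116 bases, and with Gm15564, over 52 bases. Gm15564, a lncRNA gene, was at 0.000264 and 0.000265 in low-MYC and 0.00355 and 0.00268 in high-MYC libraries, and AA474408 at 0.0469 and 0.0458 and at 0.126 and 0.169. Both were higher in high-MYC libraries, at levels far under that of Lars2. AY036118, an abundant lncRNA gene on chromosome 17 with no such run in common with Lars2, was at 42.9 and 24.9 in low-MYC and 122 and 73.4 in high-MYC libraries. These genes were chosen after their values were seen, and their part in the Lars2 result was not tested.

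The other mitochondrial enzymes had ratios of means from 1.97 (Fars2) to 2.55 (Vars2). Vars2, for valine, was at 0.532 and 0.495 and at 1.32 and 1.30. Iars2, for isoleucine, was at 0.714 and 0.728 and at 1.65 and 1.84. Their relative log2 differences, 0.16 (SE 0.0626, limma adjusted p = 0.176) and 0.088 (SE 0.0331, adjusted p = 0.160), did not pass the test although the groups were apart.

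Yars2, for tyrosine, was at 1.02 and 1.01 in low-MYC and 1.98 and 2.12 in high-MYC libraries. Mars2, for methionine, was at 0.610 and 0.622 and at 1.23 and 1.34. Both were apart and lower relative to the median gene, Yars2 at -0.16 (SE 0.0297, limma adjusted p = 0.0478) and Mars2 at -0.11 (SE 0.0287, adjusted p = 0.0850). Aars2, at 0.395 and 0.359 and at 0.847 and 0.822, overlapped at -0.027 (SE 0.0702). Between these ends lay Rars2 (-0.017), Tars2 (-0.0050), Hars2 (0.019), Cars2 (0.045), Sars2 (0.047), Ears2 (0.063) and Pars2 (0.070), none past an adjusted p of 0.05.

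The 3 members under the minimum level were all mitochondrial. Fars2, the lowest member, was at 0.0065 and 0.0067 in low-MYC and 0.0131 and 0.0128 in high-MYC libraries. Nars2 was at 0.0349 and 0.0359 and at 0.0792 and 0.0810, and Wars2 at 0.0432 and 0.0484 and at 0.0986 and 0.110. All were higher per cell in both high-MYC libraries, and no test was made for them.

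Which form rose more on the spike-in scale depended on the pseudocount. With 0.1 added before the log, the median log2 difference was 1.04 for the cytosolic and 0.97 for the mitochondrial enzymes. With no pseudocount, as the ratio of group means, it was 1.09 and 1.22, beside 1.17 for all tested genes, so the order was turned. The mitochondrial genes were lower in level (median 0.903 against 3.96 normalized FPK), where adding 0.1 takes more from a ratio. Relative to the median gene the cytosolic median was 0.12 below the mitochondrial one, and the sign was the same under every planned setting of that scale.

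**Figure D3:**
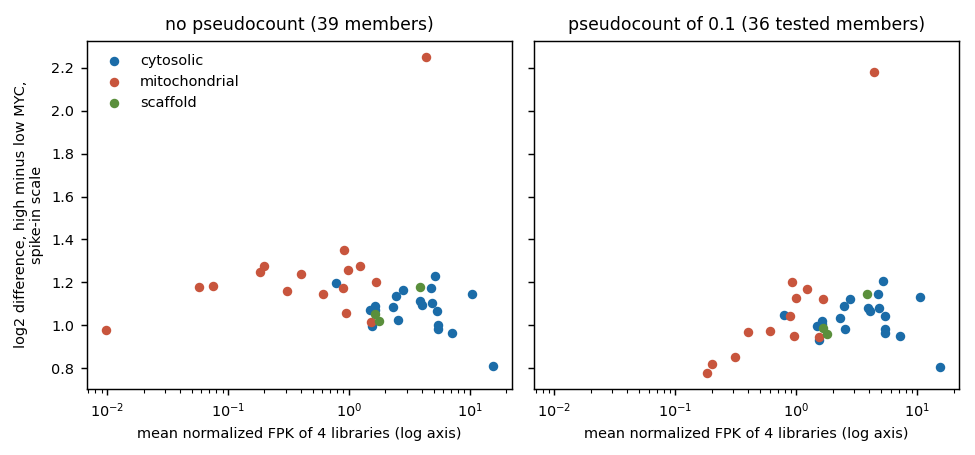
Log2 difference on the spike-in scale against mean level (log axis), without a pseudocount (left, 39 members) and with 0.1 added (right, 36 tested members). With the pseudocount the low mitochondrial genes move down, to 0.78 for Cars2, and Lars2 is above 2 in both panels.

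A ratio of the cytosolic to the mitochondrial gene within a library needs no scaling between libraries. Of 17 such pairs (14 amino acids with separate genes, Farsa with Fars2, and Eprs with Ears2 and with Pars2), 11 had a lower ratio in both high-MYC than in either low-MYC library. The ratio was higher without overlap in 2, Yars/Yars2 and Farsa/Fars2, and overlapped in 4, Eprs/Pars2, Wars/Wars2, Hars/Hars2 and Mars/Mars2. The median log2 difference over the 17 was -0.14. With 0.1 added to both genes, 2 ratios were lower and 8 higher. With 2 libraries against 2, a two-sided exact permutation test cannot give a p below 0.333, which is what each separated pair reached. Pairs that contain Eprs share that gene, and no background over other gene pairs was computed.

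**Figure D4:**
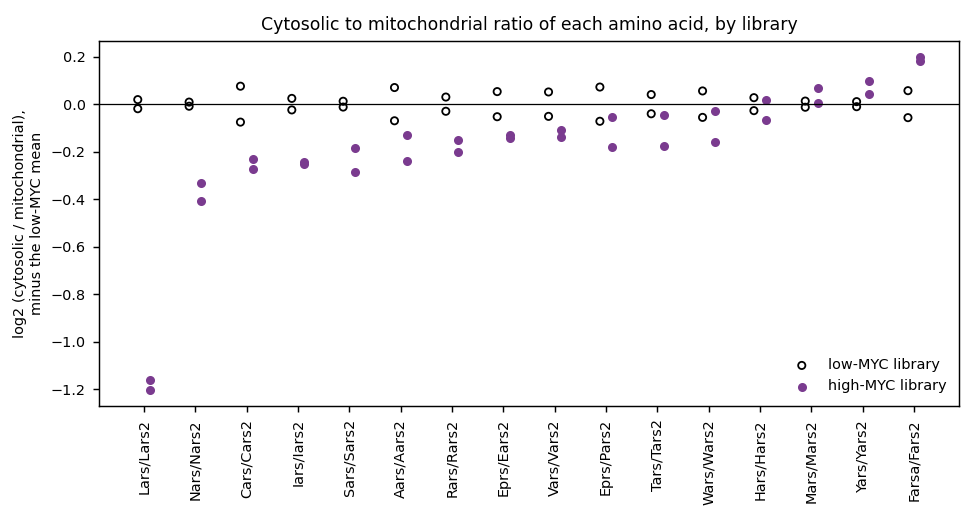
Log2 ratio of cytosolic to mitochondrial normalized FPK, minus its mean in the low-MYC libraries, for 16 pairs. Open circles are low-MYC and filled circles high-MYC libraries; in 10 pairs both filled circles lie under both open ones, by far the most in Lars/Lars2 (-1.18).

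Leucine gave the widest difference. Lars/Lars2 was 0.690 and 0.709 in low-MYC and 0.304 and 0.313 in high-MYC libraries, and it is the only pair whose mitochondrial gene was above the cytosolic one. Asparagine came next, where Nars/Nars2 was 314 and 318 and then 238 and 251. Both genes of the latter pair were higher per cell, Nars by a smaller ratio.

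Cars/Cars2 went from 9.07 and 10.1 to 7.91 and 8.15. Iars/Iars2 went from 2.27 and 2.34 to 1.95 and 1.93, and Sars/Sars2 from 15.1 and 15.4 to 12.5 and 13.4. These groups were apart, with log2 differences from -0.25 to -0.24. Aars/Aars2, Rars/Rars2, Eprs/Ears2, Vars/Vars2 and Tars/Tars2 had lower ratios, with log2 differences of -0.18 to -0.11, and the spread between libraries of a group was close to that size in several, as in Tars/Tars2 with 6.16 and 6.52 against 5.61 and 6.14. The opposite direction was smaller in Yars/Yars2 (1.44 and 1.46, then 1.56 and 1.498) than in Farsa/Fars2 (270 and 249, then 294 and 297), where Fars2 is near the bottom of the range.

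Summed over the family, the cytosolic enzymes exceeded the mitochondrial ones 7.29 and 7.52 times in the low-MYC libraries and 5.51 and 5.55 times in the high-MYC libraries. Lars2 alone made up 19.0% and 19.4% of the mitochondrial sum in low-MYC and 33.3% and 33.2% in high-MYC libraries. Without Lars2 the ratio was 9.004 and 9.33, and 8.27 and 8.31. The groups were apart either way.

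Some members share sequence with another gene, which can split or add reads in the authors' counting. In their longest coding transcript, 5 members had at least 10% of bases in runs of 31 found, on either strand, in another gene of the table. Such a share can include overlap with a gene on the opposite strand. The members were Aimp2 (41.2%, with Eif2ak1), Iars2 (37.2%, with Rab3gap2), Iars (36.4%, with Gm4849), Cars2 (22.3%, with Naxd) and Farsb (12.3%, with Sgpp2). Their values are uncertain by an amount that was not tested. Against any annotated gene, in the table or not, 9 members reached 10%. Aars (23.1%, with Exosc6), Aimp1 (21.9%) and Kars (17.8%) were among the added ones. Hars and Hars2 start head to head and overlap by 198 bases. Their library kit keeps the strand, but whether the counting used it is not given in the sources used here.

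A protein-coding start on the opposite strand within 1000 bases of their own was found for 12 of 40 members (30%), against 14.5% of 15053 protein-coding genes. They were 4 of 20 cytosolic, 6 of 17 mitochondrial and 2 of 3 scaffold genes. Hars and Hars2 are partners of each other, so their shared locus is counted in both of the first groups. Examples are Sars2 with Mrps12, a mitochondrial ribosomal protein gene, and Rars2 with Orc3. The partners Mrps12 and Orc3 had relative log2 differences of 0.069 and 0.11, beside 0.047 and -0.017 for Sars2 and Rars2. Lars2 and Nars have no such partner.

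TACh-seq, which maps chromatin open to nuclease, was done on wild-type MEFs and MEFs with Fubp1 knockout plus Fubp2 knockdown, not on the sorted cells. The data were read from a list of read positions whose columns name no library, so groups are not compared here. Reads began within 500 bases of the annotated start in 39 of 40 members (97.5%), against 84.3% of 10261 tested protein-coding genes. The exception was Tars2. The median was 143 reads for cytosolic, 138 for mitochondrial and 181 for scaffold genes, and 106 for tested protein-coding genes. Of the FUBP1 ChIP-seq peaks, which the deposited list gives for chromosome 15, none overlapped Tars, the only member on that chromosome, and the nearest was 764336 bases away.

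Other genes of the same pathway were read against the median gene too. A mixed list of synthetase-like proteins, selenocysteine synthesis genes and enzymes that clear misacylated or peptidyl tRNA (11 tested), with Aarsd1 and Sephs2 among them, had a median relative log2 difference of 0.041, up to 0.13 for Aarsd1. Genes that work with mitochondrial tRNA, mostly translation factors (13 tested), had -0.047, from -0.19 for Mtrf1 to 0.078 for Tsfm. Cytosolic elongation factors (6) had -0.026, from -0.075 for Eef1d to 0.0052 for Eef1b2. RNA polymerase III with its factors (21), which makes tRNA, had -0.025, from -0.18 for Polr3c to 0.10 for Gtf3c1. The genes that process and export tRNA (20) had -0.024, from -0.30 for Rpp25 to 0.15 for Tsen15. In these 5 lists 0 genes passed an adjusted p of 0.01 in limma in either direction. At an unadjusted p under 0.05, which 15.8% of all genes met lower and 17.3% higher, the lower genes included Mtrf1 and Mtif3 of the second list, Polr3c, Polr3a, Bdp1 and Polr3g, and Rpp30 and Pop1. The higher gene was Sephs1, of the first list.

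The amino acid response genes had a lower median than any form of the synthetases. Of 25 tested, 22 were below 0, where 51.5% of all tested genes were so, with a median of -0.22. At an adjusted p under 0.05 in limma 13 were lower, beside 5.08% of all genes, and 1 higher, beside 7.84%. At 0.01 none passed, and at an unadjusted p under 0.05, 18 were lower and 1 higher. Atf4 was at 35.6 and 35.7 in low-MYC and 61.0 and 65.9 in high-MYC libraries, which were apart (relative log2 difference -0.35, SE 0.0289, adjusted p = 0.0103). Ppp1r15a, at 8.38 and 7.92 and then 12.4 and 12.9, had the lowest difference (-0.53), and Cebpb, at 2.42 and 2.59 and then 6.69 and 7.22, the highest (0.29). Asns, which makes the asparagine that Nars uses, was at -0.30 (SE 0.0378, adjusted p = 0.0217).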

How the data were processed

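The main measurement was RNA-seq of sorted MEFs, low or high in MYC, with 2 technical replicates each. The authors trimmed the reads and placed them on mm10 transcripts using TopHat, estimated levels in Partek, and scaled each FPK by the geometric mean of ERCC transcripts. The deposited signal values are these spike-in-normalized FPK. Versions of TopHat and Partek are not given in the sources used here. The authors aligned ChIP-seq and TACh-seq reads with Bowtie2 and called peaks with SICER. The deposited TACh-seq list holds positions and a mapping score per read, and the score was not used.

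Genes that averaged 0.1 or more across the 4 libraries were compared on log2(normalized FPK + 0.1) with limma 3.58.1 (lmFit, eBayes with trend) in R 4.3.3, with Benjamini-Hochberg adjustment over 11870 genes, once on the deposited scale and once with each library divided by its median gene. A fold change understates low genes on this scale. A few items are not reported here. The other members were given their values, with the 3 highest and 3 lowest relative differences of each form, the members past an adjusted p of 0.01 and the extremes of level in full. From other lists the extremes, Atf4 and Myc were named, and Asns and partner genes were chosen after their values were seen. The members and lists were chosen with earlier results of these data known. The listed stop positions exceed GENCODE M21 by 1 base and were corrected, after which 40 members matched it. No column of values was left unassigned. Python 3.11.15, pandas 2.3.3, numpy 2.4.6 and matplotlib 3.10.9 were used.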

Additional observations from a re-analysis of the deposited data

How the results depend on the processing

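With 2 technical libraries per group the relative calls rest on little. The replicate block left 0 members higher and 0 lower relative to the median gene, of 0 genes called in all, and leaving out a library gave 0 to 0 members in either direction. Lower members numbered 0 without a minimum and without the limma trend, where 7 and 53 genes were called in all. There were 3 of 26 with a minimum mean of 1, beside 213 of 5608 genes. Protein-coding genes alone gave 5 of 37 members, beside 526 of 10261 genes. An adjusted p under 0.05 gave 6 of 37, beside 603 of 11870. The replicates share only a number (correlation of deviations of same-numbered libraries 0.081 over 2 pairs). In limma with this block the adjusted p was 0.0141 for Lars2 and 0.0209 for Nars, and no call of a member changed on the spike-in scale.

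On the spike-in scale, 33 of 37 members were 2-fold or more higher with a pseudocount of 0.01, beside 10076 of 11870 genes. With a pseudocount of 1 there were 3 members, beside 1448 genes. With libraries brought to a common median instead, 1 member was higher, at 2-fold and at any fold, beside 68 and 209 genes. The cytosolic median became 0.83 with a pseudocount of 1, 1.09 with none and -0.087 at a common median. The mitochondrial median became 1.19 with a pseudocount of 0.01, 0.51 with 1, 1.22 with none, 0.95 without a minimum, 1.15 with a minimum mean of 1 and 0.036 at a common median, and 0.98 to 1.00 without a library. The cytosolic minus mitochondrial median became -0.10 with 0.01, 0.31 with 1, -0.14 with no pseudocount, -0.11 with a minimum mean of 1 and -0.12 at a common median, and 0.015 to 0.082 without a library. The pseudocount lowers the ratio of low genes by its construction, and the cause of the other changes was not tested.

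Relative to the median gene, the cytosolic median became -0.066 with a pseudocount of 1, -0.12 without a minimum, -0.10 with a minimum mean of 1, -0.073 at the same total, -0.11 for amino acids with separate genes, and -0.096 to -0.073 without a library. The mitochondrial median became -0.012 without a minimum. The difference became -0.078 with a pseudocount of 1. Pairs with a lower ratio numbered 2, 1 and 2, and with a higher ratio 8, 16 and 1, at a pseudocount of 0.1, at 1, and with a minimum mean of 1 (4 pairs left). With a minimum mean of 0.1, 1 of 14 pairs was higher. The settings without a pseudocount, without Lars2, and for pairs at 0.1 were chosen after seeing the data.

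Setting a common median shifts all genes down together, so that 51.5% of all tested genes lie below 0. A change of sign is thus common among all genes, and more frequent among the members. Those below 0 were 25 of 37: Aars -0.21, Aars2 -0.027, Aimp1 -0.12, Cars -0.17, Dars -0.10, Eef1e1 -0.15, Eprs -0.039, Farsa -0.012, Gars -0.064, Hars -0.0040, Iars -0.15, Kars -0.074, Lars -0.10, Mars -0.081, Mars2 -0.11, Nars -0.37, Qars -0.033, Rars -0.19, Rars2 -0.017, Sars -0.17, Tars -0.11, Tars2 -0.0050, Wars -0.084, Yars -0.091 and Yars2 -0.16.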
